A study of Medicago truncatula with 9 samples.

Results

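Splicing factors and RNA helicases were followed in mature seeds of the barrel medic Medicago truncatula, in the wild type R108 and in a pair of lines with a Tnt1 retrotransposon insertion in that background, hsfa9-1 (line NF10440) and hsfa9-2 (line NF13157). The members were the loci whose deposited description names a splicing factor, pre-mRNA, the spliceosome, a small nuclear ribonucleoprotein (snRNP), a DEAD-box protein, an RNA helicase or a serine/arginine protein, and 236 of 36695 loci did so. Each genotype had 3 libraries, each made from 50 seeds of different plants, and pods had been dried at 43% relative humidity and seeds stored at 20 °C. All 3 genotypes share the R108 background, and each mutant is 1 insertion line, with no complemented line among the samples. The lines carry the name of HSFA9, a seed heat stress transcription factor, but no description names that gene, so the labels were not checked against its level. Nothing in the labels marks separate growth batches. The p-values rest on the spread between libraries of the same genotype, whatever that spread contains. That spread was pooled over the 3 genotypes for each locus and moderated towards that of other loci.

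Introns are removed by the spliceosome, which is assembled on each intron from the U1, U2, U4/U6 and U5 snRNPs, or from U11/U12 and related particles on a minor class of introns. SR proteins and the U2AF and SF3 factors help to mark the splice sites and the branch point, and ATP-dependent helicases then rearrange the RNAs so that the reactions can proceed and the product is released. The wider DEAD-box and DEAH families use the same kind of motor in ribosome assembly, translation initiation, mRNA export, RNA decay and organelle RNA processing. A dry seed stores many of its mRNAs until imbibition.

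Expression was taken as FPKM, that is, fragments relative to the length of the transcript and to all mapped fragments, and the transcript models of a locus were added up. Of the 236 members, 190 reached at least 1 FPKM in at least 3 libraries and were tested, and none of the other 46 had a mean above 0.693 FPKM. The tested members were 62 of 80 DEAD-box RNA helicases, 36 of 43 snRNP proteins, 23 of 29 pre-mRNA splicing and processing factors, 20 of 22 other RNA helicases, 19 of 21 U2AF, SF1 and SF3 factors, 13 of 23 splicing helicases, 8 of 9 other splicing factors, all 8 SR proteins and the single cleavage factor. The median tested member had a mean of 44.2 FPKM, against 10.97 FPKM for all 17508 tested loci, and 56 members were at 100 FPKM or more. Summed FPKM lay between 922801 and 981285 per library, and 16220 to 16606 loci reached 1 FPKM in each. The absolute depth is unknown.

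Against R108, members were called lower more often than higher in both mutants, by small amounts. A change was called at a Benjamini-Hochberg adjusted p under 0.05 in limma over all tested loci. In hsfa9-1, 34 members rose and 56 fell, which is 47.4% of those tested, where 59.5% of all tested loci were called (27.6% higher and 31.9% lower). In hsfa9-2, 28 rose and 77 fell, which is 55.3%, where 62.3% of all tested loci were called (25.8% higher and 36.5% lower). The median log2 change of the members was -0.05 in hsfa9-1 and -0.16 in hsfa9-2, beside -0.04 and -0.10 for all tested loci, where a log2 change is the difference of mean log2(FPKM + 1). The members moved less in size than other loci did, and the median size of the log2 change was 0.21 and 0.26, beside 0.39 and 0.42 for all tested loci. A called change of at least 1 on the log2 scale was found for 2 members that rose and 5 that fell in hsfa9-1, and for 2 and 8 in hsfa9-2, where 16.1% and 17.4% of all tested loci had one. Among loci with a mean of at least 20 FPKM, 47.2% of 142 members and 66.8% of 6575 loci were called in hsfa9-1, and 57.7% and 70.3% in hsfa9-2.

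The balance between higher and lower calls depended on the scaling. The median log2 level of the tested loci was itself shifted by -0.07 in hsfa9-1 and by -0.12 in hsfa9-2. When each library was centred on that median, 48 members were called higher and 45 lower in hsfa9-1, and 50 higher and 51 lower in hsfa9-2. In bulk seeds, fewer cells of a type and less RNA per cell cannot be told apart.

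Both mutants were compared with the same R108 libraries, so the overlap of their calls is not independent. Of the 190 members, 26 were called higher in both, 56 lower in both and 0 in opposite directions, while 23.4% of all tested loci were called higher in both and 30.0% lower in both, 53.3% in all. A further 8 members were called in hsfa9-1 alone and 23 in hsfa9-2 alone, and 77 in neither. The groups did not overlap for 118 members in hsfa9-1 and 121 in hsfa9-2, where 67.1% and 66.4% of all tested loci did not overlap.

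**Figure D1:**
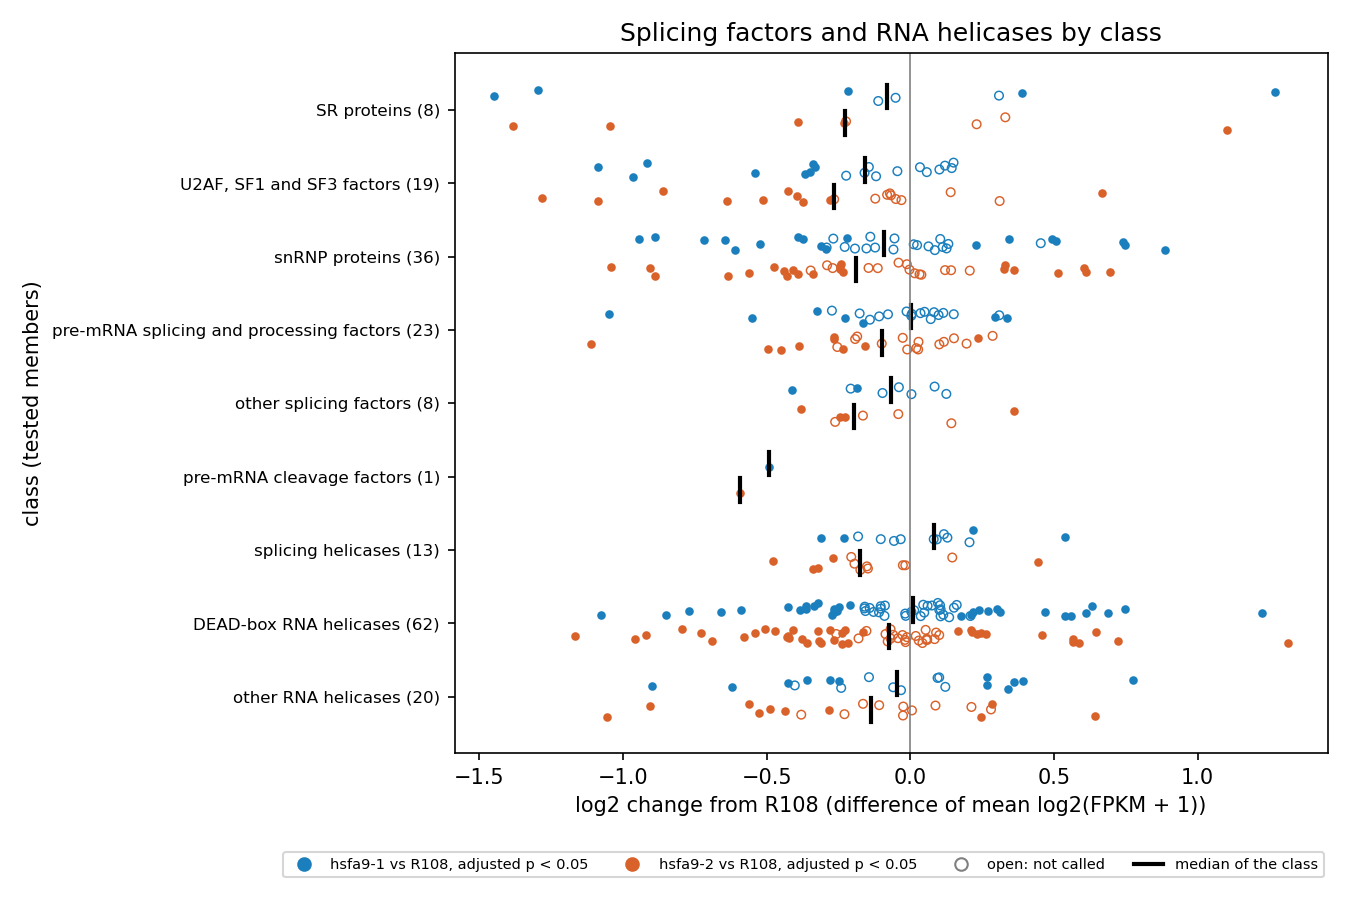
The x axis is the log2 change from R108 (difference of mean log2(FPKM + 1)) and the y axis the class with its number of tested members; each point is 1 member, filled where the adjusted p was under 0.05 and open where it was not, in blue for hsfa9-1 and orange for hsfa9-2, and black bars mark medians. Most points lie within 0.5 of 0, and the SR proteins reach from -1.45 to 1.27 in hsfa9-1.

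Markers of other tissues and cell layers moved with genotype. The summed level of 42 flavonoid synthesis loci, a marker list for the seed coat, ranged from 223 to 249.5 FPKM in R108, from 1633 to 1798 in hsfa9-1 and from 1862 to 2282 in hsfa9-2, with 5 to 8 of them at 0 in all libraries of a genotype. The 112 light harvesting and photosystem loci, a green tissue list, ranged from 3414 to 3690 FPKM in R108, 2320 to 3085 in hsfa9-1 and 1980 to 2331 in hsfa9-2, with 8 to 10 at 0. The 97 loci described as nodule genes ranged from 785 to 988 FPKM in R108, 2201 to 2487 in hsfa9-1 and 2416 to 3947 in hsfa9-2, with 44 to 50 at 0. The 18 storage globulin and oleosin loci, which define the seed, ranged from 15520 to 16891 FPKM in R108, from 12412 to 16468 in hsfa9-1 and from 18642 to 20941 in hsfa9-2, with 0 or 1 at 0, and every hsfa9-2 library was above all others. The part of these lists in the results on splicing factors and helicases was not tested.

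The SR proteins ranged more widely than any other class in hsfa9-1. These proteins bind exonic sequences and recruit U1 and U2AF to nearby splice sites. Of 8 tested, 2 rose and 3 fell in hsfa9-1, and 1 rose and 4 fell in hsfa9-2. In each mutant 62.5% were called, where 59.5% of all tested loci were called in hsfa9-1 and 62.3% in hsfa9-2. With median centring the counts were 3 and 2, and 3 and 3. The summed level of the class was 413 ± 13.4 FPKM in the wild type, 416 ± 4.54 in hsfa9-1, and it was 383 ± 44.6 in hsfa9-2 (SD, n = 3).

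Within that nearly level sum, 6 loci annotated as SRSF1, the SR protein also called SF2, went different ways. Medtr8g058530 stood at 36.6, 31.7 and 30.7 FPKM in the R108 libraries, at 86.7, 79.0 and 76.6 in hsfa9-1 and at 78.7, 71.5 and 65.7 in hsfa9-2. All 6 mutant libraries lay above all 3 of R108. The log2 change was 1.27 (SE 0.09, limma adjusted p = 8.18e-07) in hsfa9-1 and 1.10 (adjusted p = 2.17e-06) in hsfa9-2. Medtr7g112760 showed the opposite pattern, with 40.4, 45.6 and 38.95 FPKM in R108, 14.4, 13.6 and 15.8 in hsfa9-1 and 15.7, 17.4 and 13.1 in hsfa9-2. Every mutant library was below every R108 library, and the log2 changes were -1.45 and -1.38 (limma adjusted p = 1.07e-06 and 1.38e-06). Medtr1g083400 fell in the same way from a lower level, from 15.8 ± 1.86 FPKM in R108 to 5.84 ± 0.517 in hsfa9-1 and 7.19 ± 1.11 in hsfa9-2 (SD, n = 3).

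The most abundant SF2-like locus, Medtr3g092580, had 136 ± 1.64, 126 ± 5.19 and 117 ± 16.5 FPKM in R108, hsfa9-1 and hsfa9-2, and was called in neither mutant (limma adjusted p = 0.319 and 0.054), although leaving out hsfa9-2 replicate 2 gave 0.0091 in hsfa9-2. Medtr7g108810 had 45.7 ± 2.45, 56.9 ± 4.56 and 54.7 ± 12.7 FPKM and was not called either, but without hsfa9-2 replicate 3 it was called higher in hsfa9-1 and in hsfa9-2 (adjusted p = 0.00633 and 0.00195), as it was after median centring. The sixth locus, Medtr1g088180, was near the detection limit at 1.02 to 1.65 FPKM on average and was called higher in hsfa9-1 (adjusted p = 0.0416). That call was lost when R108 replicate 1, 2 or 3 or hsfa9-1 replicate 1 or 3 was left out, with adjusted p between 0.0627 and 0.155. Near-identical copies can divide reads between them, so levels of single SF2-like loci are uncertain to that extent. Medtr4g064740, an SR-rich splicing activator annotated as SRRM1, had 100.04 ± 9.54, 96.2 ± 1.28 and 85.1 ± 5.91 FPKM. It was called lower in hsfa9-2 (limma adjusted p = 0.0273), and not without R108 replicate 1 (adjusted p = 0.101) or 2 (0.0884), or hsfa9-2 replicate 2 (0.05004) or 3 (0.0891). The call was also lost with median centring (0.243) and without the 100 most abundant loci (0.101). So it was with no filter on low values (0.0534) and with only the 2 genotypes compared (0.0561).

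The U2AF, SF1 and SF3 factors were lower on balance. They recognise the polypyrimidine tract, the AG at the end of the intron and the branch point. Of 19 tested, 0 rose and 8 fell in hsfa9-1, and 1 rose and 9 fell in hsfa9-2. This is 42.1% and 52.6% called, where 59.5% and 62.3% of all tested loci were called (31.9% and 36.5% lower). The counts with median centring were 2 higher and 8 lower in each mutant. Their median log2 change was -0.16 and -0.27. The class summed to 1668 ± 51.4 FPKM in the wild type, 1304 ± 11.9 in hsfa9-1, and it was 1260 ± 77.1 in hsfa9-2 (SD, n = 3), and every mutant sum was below every R108 sum.

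All 3 loci for the U2AF small subunit, which contacts the AG of the intron end, fell in both mutants. Medtr1g035130 had 74.0, 76.4 and 70.03 FPKM in R108, 33.8, 33.1 and 35.4 in hsfa9-1 and 31.9, 29.1 and 28.0 in hsfa9-2. No mutant library came near the R108 range, with log2 changes of -1.09 (SE 0.07, limma adjusted p = 3.45e-07) and -1.28 (adjusted p = 1.06e-07). Medtr2g084715, the most abundant in R108, had 151, 166 and 149 FPKM there, 74.8, 84.9 and 77.5 in hsfa9-1 and 79.1, 68.7 and 70.1 in hsfa9-2. Its groups did not overlap either, and it changed by -0.96 and -1.09 (limma adjusted p = 2e-06 and 7.75e-07). Medtr7g103630 moved less, from 121 ± 6.17 FPKM to 96.0 ± 8.37 and 92.2 ± 6.25, and became the most abundant of them in both mutants.

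The large subunit, which binds the polypyrimidine tract, gave a mixed picture. Medtr2g013130 fell from 37.7 ± 0.916 FPKM in R108 to 29.8 ± 0.807 and 26.2 ± 2.36 (limma adjusted p = 0.00243 and 0.000121), although with transcript models tested one by one neither call held. Medtr3g005670 had 65.6, 59.2 and 60.2 FPKM on average in R108, hsfa9-1 and hsfa9-2, and Medtr4g031680 had 51.4, 55.1 and 50.2. Neither was called in either mutant, except that median centring called Medtr4g031680 higher in hsfa9-1.

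The most abundant locus of the class was Medtr5g089300, annotated as p14, which touches the branch point adenosine. Its libraries held 400, 473 and 485 FPKM in R108, 321, 297 and 312 in hsfa9-1 and 302, 348 and 229.9 in hsfa9-2, all mutant values below all R108 values. The log2 changes were -0.54 and -0.64 (limma adjusted p = 0.00553 and 0.00188). SF3B2 (Medtr4g089085), a subunit of the SF3b complex in U2, fell from 181 ± 2.76 to 140 ± 10.0 and 139 ± 7.08 FPKM. Of 2 tested loci with that KEGG term, 1 was called lower in both mutants and 0 higher in both. With median centring the set held loci in both directions. A weakly expressed SF3B3 locus, Medtr4g115500, fell from 5.34 ± 0.703 to 2.35 ± 0.271 and 2.48 ± 0.295 FPKM. Of 4 tested loci with the KEGG term SF3B3, 2 were called lower in both mutants and 0 higher in both.

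Before median centring, the 1 locus of the class called higher in either mutant was for SF3B5, a small SF3b subunit. Medtr8g062750 had 24.0, 22.3 and 29.3 FPKM in R108, 28.9, 31.7 and 22.1 in hsfa9-1 and 33.0, 53.9 and 36.7 in hsfa9-2. Its hsfa9-2 libraries were above all others, and it rose in that mutant (log2 change 0.67, limma adjusted p = 0.00946), while the difference between the mutants did not pass (adjusted p = 0.228). Medtr3g019300 and Medtr3g019310, the other SF3B5 loci, were called in neither mutant, although Medtr3g019310 was called higher in hsfa9-2 without hsfa9-2 replicate 1 (limma adjusted p = 0.00798).

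**Figure D2:**
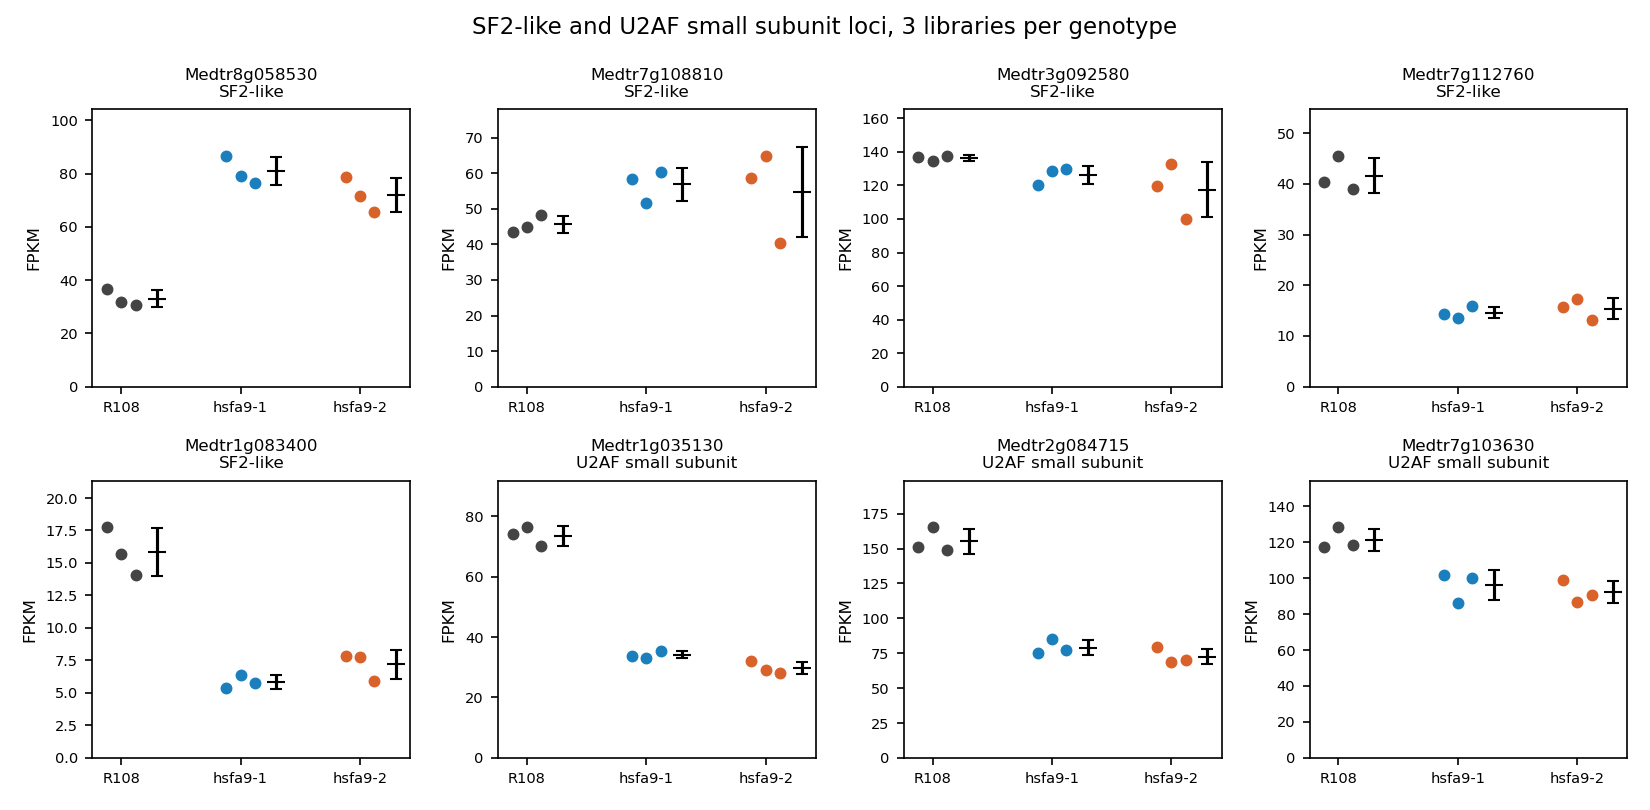
FPKM (y axis, from 0) of 5 SF2-like loci and the 3 U2AF small subunit loci by genotype (x axis); points are libraries, and the bar beside them is the mean with its SD over 3 libraries. Medtr8g058530 is higher in all mutant libraries, Medtr7g112760, Medtr1g083400, Medtr1g035130 and Medtr2g084715 are lower in all of them, and Medtr3g092580 was not called.

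Of 36 tested snRNP proteins, 7 rose and 11 fell in hsfa9-1, and all of these were called in the same direction in hsfa9-2. Over all tested loci, 9340 were called in the same direction in both mutants, 14 in opposite directions and 1058 in hsfa9-1 alone. The shares of snRNP proteins called were 50.0% in hsfa9-1 and 61.1% in hsfa9-2, where 59.5% and 62.3% of all tested loci were called. In hsfa9-2, 7 rose and 15 fell; median centring gave 7 and 10 in hsfa9-1 and 8 and 11 in hsfa9-2. The class summed to 3547 ± 72.7 FPKM in the wild type, 3270 ± 23.9 in hsfa9-1, and it was 3146 ± 26.1 in hsfa9-2 (SD, n = 3). Its median log2 change was -0.09 in hsfa9-1 and -0.19 in hsfa9-2.

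U1 is the particle that pairs with the start of the intron. Among its proteins, U1-70K (Medtr8g077840) had 332, 328 and 301 FPKM in R108. It had 246, 252 and 243 in hsfa9-1 and 249, 202 and 203 in hsfa9-2. No mutant library reached the R108 range (log2 change -0.37 and -0.56, limma adjusted p = 0.00306 and 0.000189). PRP39, a U1 protein of yeast, is the description of several loci. Medtr1g080410, described as PRP39, rose from 55.3 ± 7.95 FPKM to 92.9 ± 3.41 and 89.7 ± 4.59, and its neighbour Medtr1g080370 rose from 28.4 ± 8.48 to 46.7 ± 2.59 and 42.9 ± 6.37. The deposited annotation gives both of them 3 KEGG terms, which are PRP39, peroxiredoxin and the vacuolar sorting protein VPS13. Of 3 tested loci with these terms, 3 were called higher in both mutants and 0 lower in both. Of 2 tested loci with PRP39 as their only KEGG term, 0 were called higher in both and 1 lower in both. The call of Medtr1g080370 in hsfa9-2 (limma adjusted p = 0.0184) was lost without hsfa9-2 replicate 1 (adjusted p = 0.0632). Medtr7g098430, which both annotations call PRP39, was at 144 ± 10.1, 123.1 ± 6.93 and 108.1 ± 10.2 FPKM. It fell in both mutants (limma adjusted p = 0.0403 and 0.00147), but its hsfa9-1 call did not survive without R108 replicate 1 or 2, hsfa9-1 replicate 1 or 3 or hsfa9-2 replicate 2 (adjusted p 0.0506 to 0.142).

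Loci with the KEGG terms U2 B'' and U2 A' moved in opposite directions. Medtr5g074430, which has the KEGG term U2 B'' but is described as a U1 snRNP protein, had 82.4, 89.6 and 83.4 FPKM in R108, 45.8, 44.3 and 46.5 in hsfa9-1 and 45.6, 43.6 and 47.3 in hsfa9-2. The mutants coincided and stayed well under R108, with a log2 change of -0.89 in each (limma adjusted p = 6.15e-07 and 5.79e-07). U2 A' (Medtr6g004180), by its description and its KEGG term, had 90.9, 93.5 and 96.7 FPKM in R108, 130, 135 and 135 in hsfa9-1 and 144, 137 and 147 in hsfa9-2. It was higher in every mutant library, with log2 changes of 0.51 and 0.60 (limma adjusted p = 1.96e-05 and 4.97e-06).

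Among the U4/U6 and U5 proteins, PRP8 (Medtr2g103960), the scaffold of the catalytic centre, was the most abundant snRNP member and was called in neither mutant, at 512 ± 37.3, 554 ± 37.5 and 510 ± 7.17 FPKM. Of the DIM1 proteins of U5, Medtr1g045900 had 110, 126 and 115 FPKM in R108, 67.3, 71.9 and 72.6 in hsfa9-1 and 62.4, 60.0 and 63.4 in hsfa9-2. It fell clear of R108 in both (log2 change -0.72 and -0.90, limma adjusted p = 5.58e-06 and 9.36e-07). The second DIM1 locus, Medtr3g108770, was at 70.3 ± 9.49, 75.3 ± 5.20 and 77.4 ± 6.75 FPKM and was not called. The PRP8 binding protein Medtr7g086360 (U5 40K) rose from 112 ± 2.28 to 142 ± 8.16 and 141 ± 10.7 FPKM.

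One member, Medtr5g022690, was called between the mutants. It is described as PRP4, a U4/U6 protein, and had 14.0, 14.2 and 14.2 FPKM in R108, 26.1, 27.5 and 27.4 in hsfa9-1 and 20.5, 22.4 and 19.1 in hsfa9-2. The 3 genotypes did not overlap, with hsfa9-2 in the middle. It rose by 0.89 in hsfa9-1 and 0.51 in hsfa9-2 on the log2 scale (limma adjusted p = 2.16e-06 and 0.000114), and the difference of -0.37 between the mutants had an adjusted p of 0.0388. That call held without hsfa9-2 replicate 2 and was lost without any other single library (adjusted p 0.0586 to 0.157). The more abundant PRP4 locus, Medtr3g045130, was at 199.8 ± 8.996, 192 ± 11.3 and 169 ± 10.9 FPKM and was called in hsfa9-2 alone (adjusted p = 0.0113), a call that was lost with median centring.

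Between the mutants, 0 members were called higher in hsfa9-2 and 1 of 190 lower, which is 0.526%, where 1.12% of all tested loci were called (0.491% higher and 0.628% lower). No member was called with a difference of at least 1 on the log2 scale, against 0.348% of all tested loci. At an unadjusted p under 0.05, 37 members (19.5%) and 14.8% of all tested loci differed. The groups did not overlap for 58 members, where 19.1% of all tested loci did not overlap. The log2 difference, hsfa9-2 minus hsfa9-1, was negative for 154 of the 190 members (81.1%) and for 62.7% of all tested loci, whose median log2 difference was -0.05. With median centring it was negative for 66.8% of members and 48.9% of all tested loci.

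Of the Sm ring proteins shared by the spliceosomal snRNPs, Medtr6g066250 and Medtr7g104930, both SmG, fell from 161 ± 5.02 and 165 ± 5.59 FPKM in R108 to 122.8 ± 10.7 and 105 ± 9.58 in hsfa9-1 and to 116 ± 10.1 and 122 ± 4.64 in hsfa9-2. SmD1 (Medtr1g072370) fell from 211 ± 23.3 to 146 ± 10.9 and 156 ± 24.5 FPKM. Of 2 tested loci with that KEGG term, 1 was called lower in both mutants and 0 higher in both. SmE (Medtr2g104440) was among the steadiest members, at 29.8 ± 2.23, 30.1 ± 0.883 and 29.7 ± 3.55 FPKM. The KEGG term SmE had 2 tested loci, of which 0 were called higher in both mutants and 0 lower in both. On the minor spliceosome, Medtr7g082150, which has the KEGG term U11/U12-35K but is described as a U1 snRNP protein, had 17.9, 16.5 and 17.9 FPKM in R108, 8.90, 8.25 and 8.57 in hsfa9-1 and 8.34, 7.66 and 7.85 in hsfa9-2. The mutant groups lay far below R108, with log2 changes of -0.95 and -1.04 (limma adjusted p = 2.18e-06 and 9.87e-07).

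PRP40, a U1 protein that bridges to the branch point in yeast, had 1 locus on each side. Medtr1g106025 rose from 13.0 ± 1.09 to 18.8 ± 0.856 and 17.01 ± 0.454 FPKM. Medtr1g017520 fell from 61.6 ± 4.39 to 50.1 ± 4.78 and 52.1 ± 2.45 FPKM, and its hsfa9-2 call (limma adjusted p = 0.0282) was lost without R108 replicate 1 (0.106) or hsfa9-2 replicate 1 (0.0545) or 2 (0.0879), and with median centring (0.292).

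**Figure D3:**
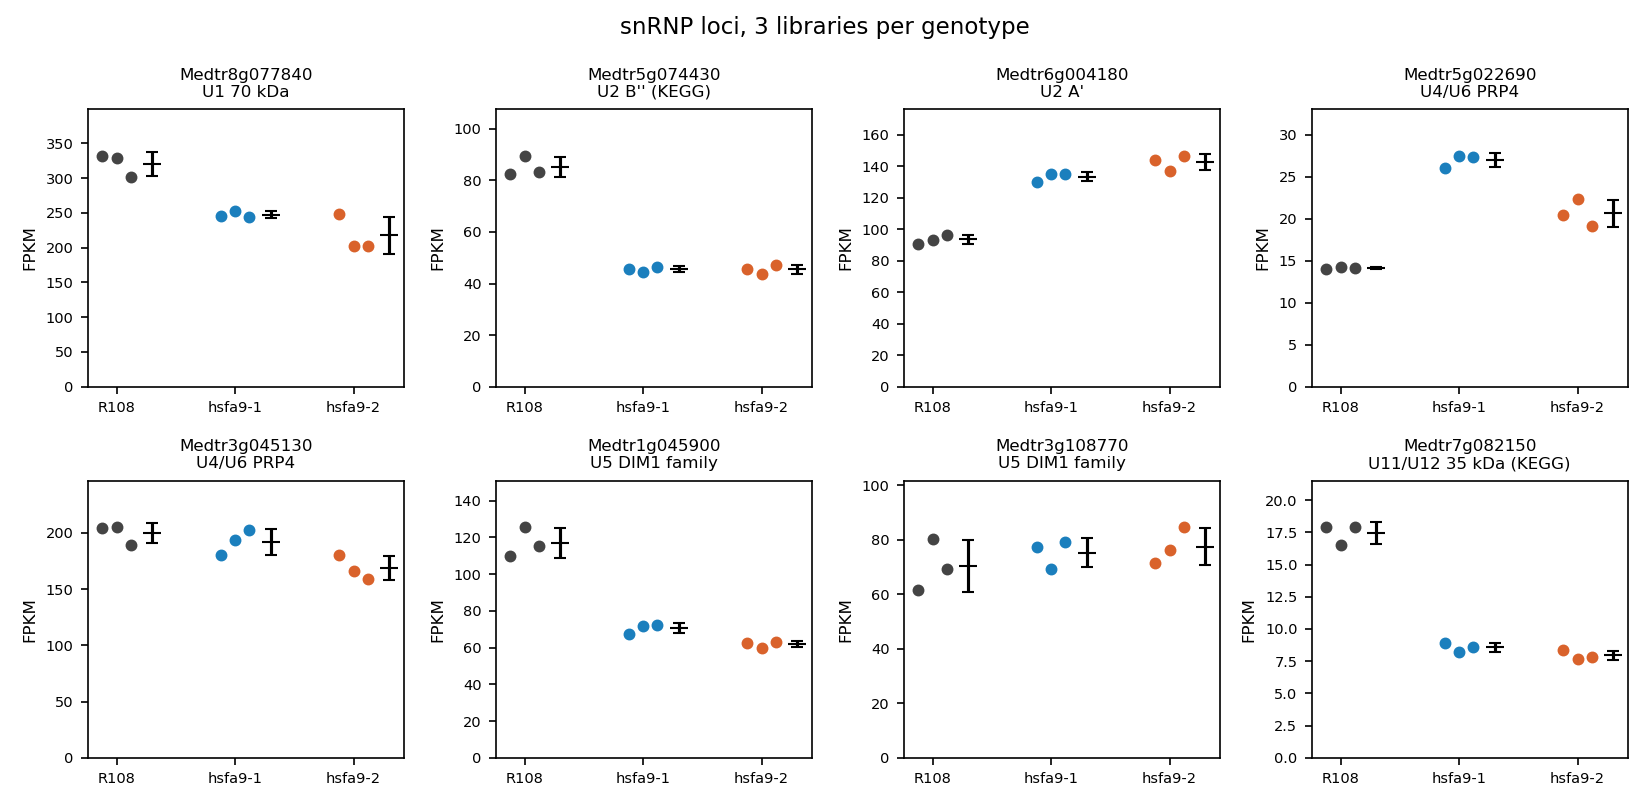
FPKM (y axis, from 0) of 8 snRNP loci by genotype (x axis); points are libraries and the bar beside them is the mean with its SD over 3 libraries. Medtr5g074430 (KEGG term U2 B'', described as a U1 snRNP protein) and U2 A' (Medtr6g004180) move in opposite directions. Of the DIM1 loci, 1 falls while the other overlaps R108. The hsfa9-2 libraries of Medtr5g022690 lie between those of R108 and hsfa9-1.

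Of 23 tested pre-mRNA splicing and processing factors, 2 rose and 5 fell in hsfa9-1 and 1 rose and 8 fell in hsfa9-2. This is 30.4% and 39.1% called, where 59.5% and 62.3% of all tested loci were called. Median centring gave 2 and 4, and 5 and 4, so that the balance in hsfa9-2 flipped. Most kept close to R108, with a median log2 change of 0.00 and -0.10. SLU7 (Medtr7g096940), a factor of the second step of splicing in yeast and human, was the most abundant at 613 ± 7.19, 543 ± 25.1 and 512 ± 48.6 FPKM. It fell in hsfa9-2 (limma adjusted p = 0.0109) but was not called there after median centring, and it was not called in hsfa9-1 (0.0669), except without hsfa9-2 replicate 2 (0.0281) or 3 (0.043), or with only the libraries of R108 and hsfa9-1 in the fit (0.0228). PRP19 (Medtr1g044720), the ubiquitin ligase that names the complex joining before catalysis, was steady at 220 ± 8.96, 226 ± 3.95 and 219 ± 13.1 FPKM.

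The largest fall of the class was Medtr1g011710, annotated as PRP6, which bridges U5 to U4/U6. It had 14.5, 14.3 and 14.7 FPKM in R108, 6.98, 6.49 and 6.07 in hsfa9-1 and 6.80, 6.39 and 5.41 in hsfa9-2. Every mutant library was below every R108 library, and the log2 changes were -1.05 and -1.11 (limma adjusted p = 5.2e-06 and 3.03e-06). The more abundant PRP6 locus, Medtr7g068630, was among the steadiest members at 85.5 ± 10.0, 84.3 ± 1.02 and 86.4 ± 3.30 FPKM. Also among them were Medtr1g077570, a homologue of cwf18 of fission yeast, at 187 ± 9.83, 188 ± 6.73 and 191 ± 4.45 FPKM, and Medtr2g028200, a splicing factor with several KEGG terms, at 107.8 ± 2.09, 108.1 ± 4.18 and 107 ± 16.6 FPKM. The last of these was called lower in hsfa9-2 when hsfa9-2 replicate 3, its highest library, was left out (limma adjusted p = 0.0499).

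SYF2 (Medtr1g112640), a protein of the PRP19-associated complex, fell from 206 ± 6.47 to 141 ± 5.26 and 147 ± 21.0 FPKM, although neither call held when transcript models were tested one by one. PRP17 (Medtr1g072740), a second-step factor of yeast, was the member of the class that rose in both mutants, from 106 ± 2.996 to 134 ± 3.42 and 125 ± 8.78 FPKM. Of 2 tested loci with that KEGG term, 1 was called higher in both mutants and 0 lower in both.

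Of 8 tested other splicing factors, 0 rose and 2 fell in hsfa9-1, and 1 rose and 3 fell in hsfa9-2. Over all tested loci, 59.5% were called in hsfa9-1 and 62.3% in hsfa9-2 (31.9% and 36.5% lower). A smaller share of the class than of all tested loci was called in each mutant. For the class, median centring gave 1 and 1, and 2 and 1. PRP18 (Medtr7g095000), which acts with SLU7 in yeast, fell from 232 ± 5.46 to 174 ± 7.56 and 178 ± 13.5 FPKM. SPF30 (Medtr4g134630), a Tudor protein of human spliceosome assembly, fell from 433 ± 8.54 to 380 ± 2.85 and 370 ± 15.2 FPKM, and both of its calls were lost with median centring. The cleavage factor Clp1 (Medtr1g116060), part of the 3′ end processing machinery, fell from 59.9 ± 1.66 to 42.4 ± 1.74 and 39.5 ± 3.82 FPKM (limma adjusted p = 0.000262 and 6.39e-05).

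**Figure D4:**
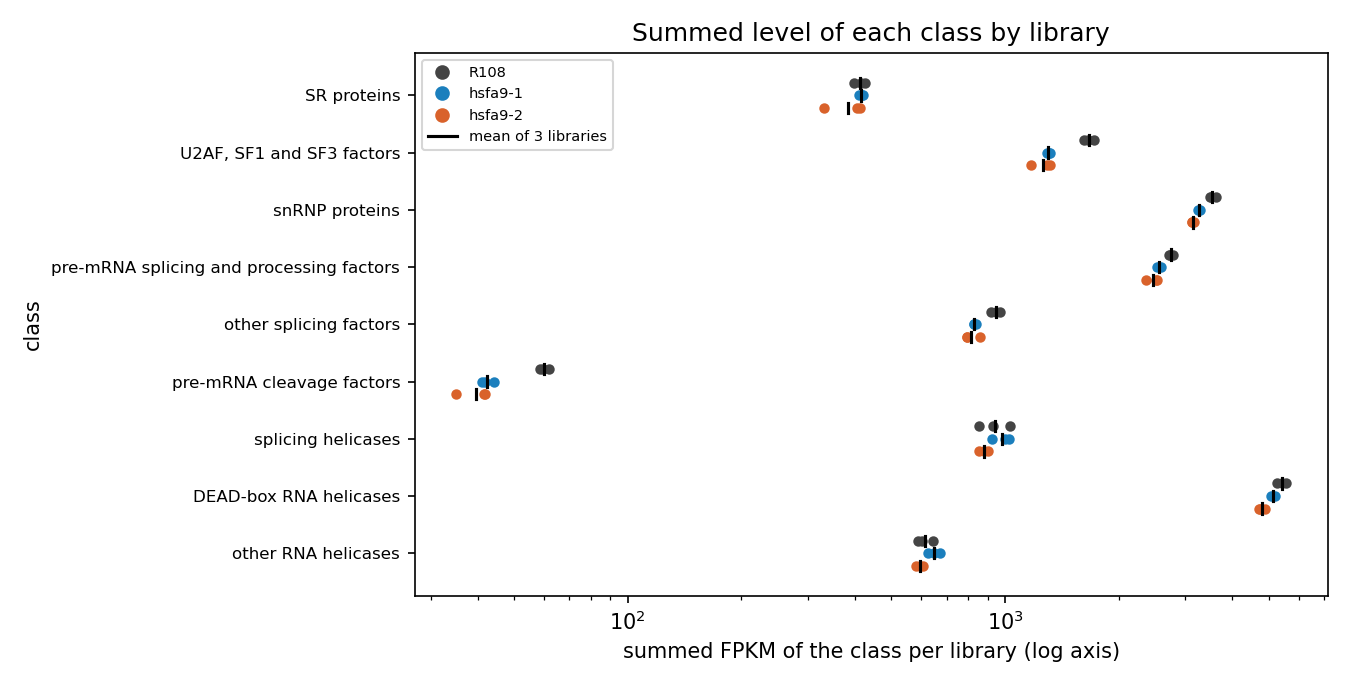
Summed FPKM of each class per library (x axis, log scale) for the 9 classes (y axis); each point is 1 library and each black bar the mean of 3. The U2AF, SF1 and SF3 sum falls from 1668 to 1304 and 1260, whereas the SR proteins and the splicing helicases overlap between R108 and hsfa9-1.

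Helicases of the spliceosome cycle were counted by description and by KEGG term. Of 13 members described as splicing helicases, 2 rose and 2 fell in hsfa9-1, and 1 rose and 4 fell in hsfa9-2; with median centring these were 4 and 0, and 2 and 2. Of 16 with the KEGG term of a spliceosome helicase, which adds DEAD-box members, 2 rose and 5 fell in hsfa9-1, 1 rose and 7 fell in hsfa9-2, and 7 were called in neither. Median centring gave 4 and 3, and 2 and 5, so that the balance in hsfa9-1 flipped. Of the 13, 30.8% and 38.5% were called in hsfa9-1 and hsfa9-2, and of the 16, 43.8% and 50.0%. Over all tested loci the shares were 59.5% and 62.3%. BRR2 (Medtr2g064740), which unwinds U4 from U6, was the most abundant at 341 ± 50.3, 359 ± 36.5 and 305 ± 9.17 FPKM and was called in neither. DHX38 (Medtr2g098440), known in yeast as PRP16, was at 207 ± 17.5, 201 ± 4.39 and 186 ± 8.22 FPKM and was not called. DHX16 (Medtr3g023880), the yeast PRP2, which starts the first step, fell from 73.8 ± 3.86 to 62.7 ± 3.25 and 58.2 ± 2.26 FPKM. Its hsfa9-1 call was lost with median centring. Of 3 tested loci with the KEGG term DHX16, 1 was called lower in both mutants and 0 higher in both. A second, weakly expressed BRR2 locus, Medtr2g064390, was at 1.44 ± 0.197, 0.963 ± 0.104 and 0.747 ± 0.0451 FPKM and was called lower in both (limma adjusted p = 0.0472 and 0.00575). Its hsfa9-1 call was lost whichever of the 9 libraries was left out (adjusted p 0.0538 to 0.187).

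DHX8, known in yeast as PRP22 and needed to release the spliced mRNA, had loci on both sides. Medtr1g114490 had 79.7, 76.8 and 65.5 FPKM in R108, 109, 110.0 and 103 in hsfa9-1 and 99.9, 105 and 97.7 in hsfa9-2. All mutant libraries were above R108, and the log2 changes were 0.54 and 0.45 (limma adjusted p = 0.000156 and 0.000537). Medtr7g095080, described as DHX35 but with the KEGG term of DHX8, fell from 43.1 ± 1.66 to 31.9 ± 1.30 and 29.6 ± 1.08 FPKM. Of the DEAD-box proteins of the spliceosome, PRP28 (Medtr4g134170), which displaces U1 in yeast, was at 267 ± 14.9, 269.7 ± 5.44 and 241 ± 17.3 FPKM and was not called, except lower in hsfa9-2 without hsfa9-2 replicate 1 (limma adjusted p = 0.023). DDX41 (Medtr1g095810), found in human spliceosomes, fell from 115 ± 2.98 to 72.7 ± 2.84 and 71.3 ± 4.41 FPKM (limma adjusted p = 7.48e-06 and 4.91e-06).

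The DEAD-box class as a whole divided nearly evenly in hsfa9-1. Of 62 tested, 15 rose and 18 fell there, and 13 rose and 26 fell in hsfa9-2; with median centring 22 rose and 14 fell in hsfa9-1 and 22 rose and 16 fell in hsfa9-2, so that the balance flipped in both. In both mutants 13 were called higher and 18 lower. The shares called were 53.2% in hsfa9-1 and 62.9% in hsfa9-2, where 59.5% and 62.3% of all tested loci were called. The class summed to 5420 ± 144 FPKM in the wild type, 5140 ± 70.8 in hsfa9-1, and it was 4788 ± 103 in hsfa9-2 (SD, n = 3). DDX21 (Medtr6g056080), a nucleolar helicase in human cells, was the most abundant of all members, at 925 ± 81.2, 859 ± 37.7 and 814 ± 21.7 FPKM, and was called in neither mutant (limma adjusted p = 0.261 and 0.0577), although it was called lower in hsfa9-2 without R108 replicate 2 (0.0132).

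Of 8 tested helicases of translation initiation, 2 rose and 4 fell in hsfa9-1, and 2 rose and 5 fell in hsfa9-2, where 31.9% and 36.5% of all tested loci fell. Median centring gave 2 and 4 in each mutant. eIF4A, which unwinds the leader of mRNAs for the ribosome, was the KEGG term of several. Medtr4g125970 had 154, 154 and 165 FPKM in R108, 93.8, 91.2 and 90.8 in hsfa9-1 and 86.9, 80.9 and 81.0 in hsfa9-2. Its mutant groups were both clear of R108, with log2 changes of -0.77 and -0.92 (limma adjusted p = 1.21e-06 and 3.26e-07), although the hsfa9-1 call was lost with transcript models tested one by one. Medtr8g018400 fell from 13.1 ± 1.40 to 6.82 ± 0.227 and 6.28 ± 0.684 FPKM.

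The most abundant eIF4A loci fell less. Medtr2g099620 went from 233 ± 9.50 to 195 ± 9.12 and 174 ± 12.2 FPKM, with its hsfa9-1 call lost for models one by one, and Medtr2g039960 went from 216 ± 13.4 to 179 ± 0.514 and 160 ± 6.01. Medtr5g017490 was not called, at 85.6 ± 0.951, 83.7 ± 3.13 and 79.4 ± 3.94 FPKM. In the opposite direction, Medtr4g134790, annotated as DHX29, which aids scanning of structured leaders in mammals, had 80.2, 69.4 and 67.5 FPKM in R108, 126, 134 and 114 in hsfa9-1 and 113, 118 and 107.9 in hsfa9-2. All mutant libraries exceeded R108 (log2 change 0.78 and 0.64, limma adjusted p = 1.87e-05 and 7.02e-05).

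Helicases of ribosome assembly were mixed. Of 24 tested, 6 rose and 6 fell in hsfa9-1, and 3 rose and 10 fell in hsfa9-2. This is 50.0% and 54.2% called, where 59.5% and 62.3% of all tested loci were called. Median centring gave 9 and 5, and 9 and 4, so that the balance in hsfa9-2 flipped. Among those that fell, DDX47 (Medtr1g023070), the Rrp3 of yeast, went from 53.8 ± 1.91 to 39.9 ± 4.55 and 37.8 ± 5.39 FPKM (log2 change -0.43 and -0.51, limma adjusted p = 0.00594 and 0.002). DDX18 (Medtr2g055850), the Has1 of yeast, fell from 124 ± 4.85 to 104 ± 4.90 and 102 ± 6.86 FPKM, with both calls lost after median centring. Of 4 tested loci with the KEGG term DDX47, 2 were called lower in both mutants and 0 higher in both. For DDX18 these numbers were also 2 and 0 of 4. DDX27 (Medtr2g041140), the Drs1 of yeast, had 20.6, 19.0 and 20.9 FPKM in R108, 35.6, 33.4 and 34.4 in hsfa9-1 and 31.4, 34.97 and 35.6 in hsfa9-2. The groups were well apart, with log2 changes of 0.75 and 0.72 (limma adjusted p = 7.35e-06 and 8.32e-06). Of 2 tested loci with the KEGG term DDX27, 1 was called higher in both mutants and 0 lower in both. DDX49 (Medtr2g066050), the Dbp8 of yeast, rose from 5.58 ± 0.766 to 9.17 ± 0.775 and 8.72 ± 0.954 FPKM. Of 5 tested loci with DDX5 as their only KEGG term, whose yeast homologue Dbp2 acts in transcription and RNA folding, 1 was called higher in both mutants and 0 lower in both. This was Medtr3g467550, which rose from 24.0 ± 1.31 to 39.2 ± 0.415 and 36.0 ± 3.80 FPKM. Of loci with DDX5 among several terms, Medtr2g063080 rose from 36.6 ± 0.291 to 54.5 ± 1.16 and 58.0 ± 3.86 FPKM. Medtr1g050730 was at 49.3 ± 3.33, 44.0 ± 0.513 and 37.7 ± 1.12 FPKM and was called lower in hsfa9-2 (limma adjusted p = 0.00045). It was called in hsfa9-1 (0.0512 with all libraries) only without R108 replicate 1 (0.048) or hsfa9-2 replicate 3 (0.0483), with a pseudocount of 0.1 (0.0497) or with a minimum mean of 5 FPKM (0.048).

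Of 4 tested helicases of export, 0 rose and 1 fell in hsfa9-1 and 0 rose and 3 fell in hsfa9-2. Their median log2 change was -0.06 and -0.24, beside -0.04 and -0.10 for all tested loci. Of all tested loci, 59.5% were called in hsfa9-1 and 62.3% in hsfa9-2 (31.9% and 36.5% lower). The share of export helicases called was below that in hsfa9-1 and above it in hsfa9-2. Median centring left 0 of them called in hsfa9-1 and 1 lower in hsfa9-2. UAP56 (Medtr4g010565), which loads mRNAs for export, was at 201 ± 6.79, 198 ± 5.79 and 198 ± 2.08 FPKM and was among the steadiest members. The other 2 tested UAP56 loci were called in hsfa9-2 alone, and not there after median centring. Medtr1g012420 was at 179 ± 1.51, 167 ± 10.9 and 144 ± 10.96 FPKM (limma adjusted p = 0.239 and 0.00326). Medtr3g107420 was at 245 ± 5.32, 242 ± 3.71 and 219 ± 6.60 FPKM, and its hsfa9-2 call (limma adjusted p = 0.019) was also lost without R108 replicate 2 (0.0693) or hsfa9-2 replicate 2 (0.057). DBP5 (Medtr1g061970), which acts at the cytoplasmic face of the nuclear pore, fell from 134 ± 3.65 to 116 ± 3.45 and 107 ± 4.64 FPKM, and its hsfa9-1 call was lost with median centring.

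Helicases of organelle RNA held 2 that rose and 3 that fell of 6 in each mutant. Those of RNA decay held 1 that rose and 2 that fell of 6. In each mutant these are 83.3% and 50.0% called, beside 59.5% and 62.3% of all tested loci in hsfa9-1 and hsfa9-2. Median centring gave 2 and 2 for organelle RNA in hsfa9-1, 3 and 2 in hsfa9-2, and 1 and 1 for RNA decay in each. The MSS116 loci, whose yeast homologue helps mitochondrial introns to fold, include consecutive identifiers that differed. Medtr8g027775 fell from 154 ± 10.7 to 102 ± 7.38 and 92.6 ± 4.95 FPKM, and Medtr8g097000 fell from 43.4 ± 1.27 to 36.1 ± 0.919 and 32.2 ± 3.10. Medtr8g027780 rose from 30.4 ± 0.240 to 37.9 ± 1.28 and 35.9 ± 0.786 FPKM, and Medtr8g027770 was not called, at 72.3 ± 4.54, 74.2 ± 2.74 and 75.1 ± 4.19, except higher in hsfa9-2 after median centring. Copies with similar sequence can divide reads, which is a limit on the single values.

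SUPV3L1, a helicase of the mitochondrial RNA degradation machinery in yeast and human, likewise had 1 locus on each side. Medtr6g011800 rose from 15.1 ± 0.709 to 18.4 ± 0.534 and 18.6 ± 0.697 FPKM. Medtr5g006660 fell from 14.3 ± 0.475 to 11.9 ± 1.02 and 11.5 ± 0.483 FPKM, and its hsfa9-1 call (limma adjusted p = 0.0231) was lost without R108 replicate 1 (0.0729) or 2 (0.0584) or hsfa9-1 replicate 2 (0.0917). After median centring Medtr5g006660 was called in neither mutant (adjusted p = 0.0852 and 0.116), nor was it with transcript models tested one by one (0.0731 and 0.0699).

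The other RNA helicases are a class by description, which overlaps the roles by KEGG term. Medtr4g134790, Medtr5g017490 and Medtr6g011800, given above, are among them. Of 20 tested other RNA helicases, 6 rose and 6 fell in hsfa9-1, and 3 rose and 7 fell in hsfa9-2. This is 60.0% and 50.0% called, where 59.5% and 62.3% of all tested loci were called. With median centring the counts were 7 and 5, and 6 and 5, so that the balance in hsfa9-2 flipped. DHX36, which unwinds G-quadruplexes in human cells, fell at Medtr1g109170, with 14.0, 15.3 and 10.96 FPKM in R108, 6.73, 6.81 and 6.43 in hsfa9-1 and 6.51, 5.59 and 5.56 in hsfa9-2. The mutant libraries lay below R108 throughout (log2 change -0.90 and -1.06, limma adjusted p = 8.06e-05 and 2.34e-05). A second DHX36 locus, Medtr1g056490, rose from 28.4 ± 0.702 to 36.3 ± 2.42 and 33.9 ± 0.557 FPKM. Medtr7g089190, described as a DNA/RNA helicase but with the KEGG term of a SWI/SNF chromatin remodeller, fell from 35.9 ± 3.06 to 22.9 ± 0.829 and 18.8 ± 2.71 FPKM.

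The widest DEAD-box changes were at low levels. Medtr1g116820, which has no KEGG term, had 2.39, 2.39 and 1.79 FPKM in R108, 6.66, 5.67 and 6.98 in hsfa9-1 and 5.79, 6.77 and 8.34 in hsfa9-2. All mutant values were above all R108 values, and the log2 changes were 1.22 and 1.31 (limma adjusted p = 3.12e-05 and 1.69e-05). DDX59 (Medtr6g033070) fell from 9.41 ± 0.284 to 3.95 ± 0.465 and 3.64 ± 0.303 FPKM, with log2 changes of -1.08 and -1.17.

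Of 41 sets of at least 2 tested members with the same terms, 6 (14.6%) held at least 1 locus called higher in both mutants and at least 1 called lower in both, where 31.9% of 2362 such sets over all tested loci did. The sets over all loci were larger, with a median of 3 tested loci against 2. The 6 were SRSF1, PRP40, DHX8, DHX36, MSS116 and SUPV3L1, whose loci are given above. With median centring PRP40 and SUPV3L1 were no longer divided, SF3B2 was, and the count was 5.

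**Figure D5:**
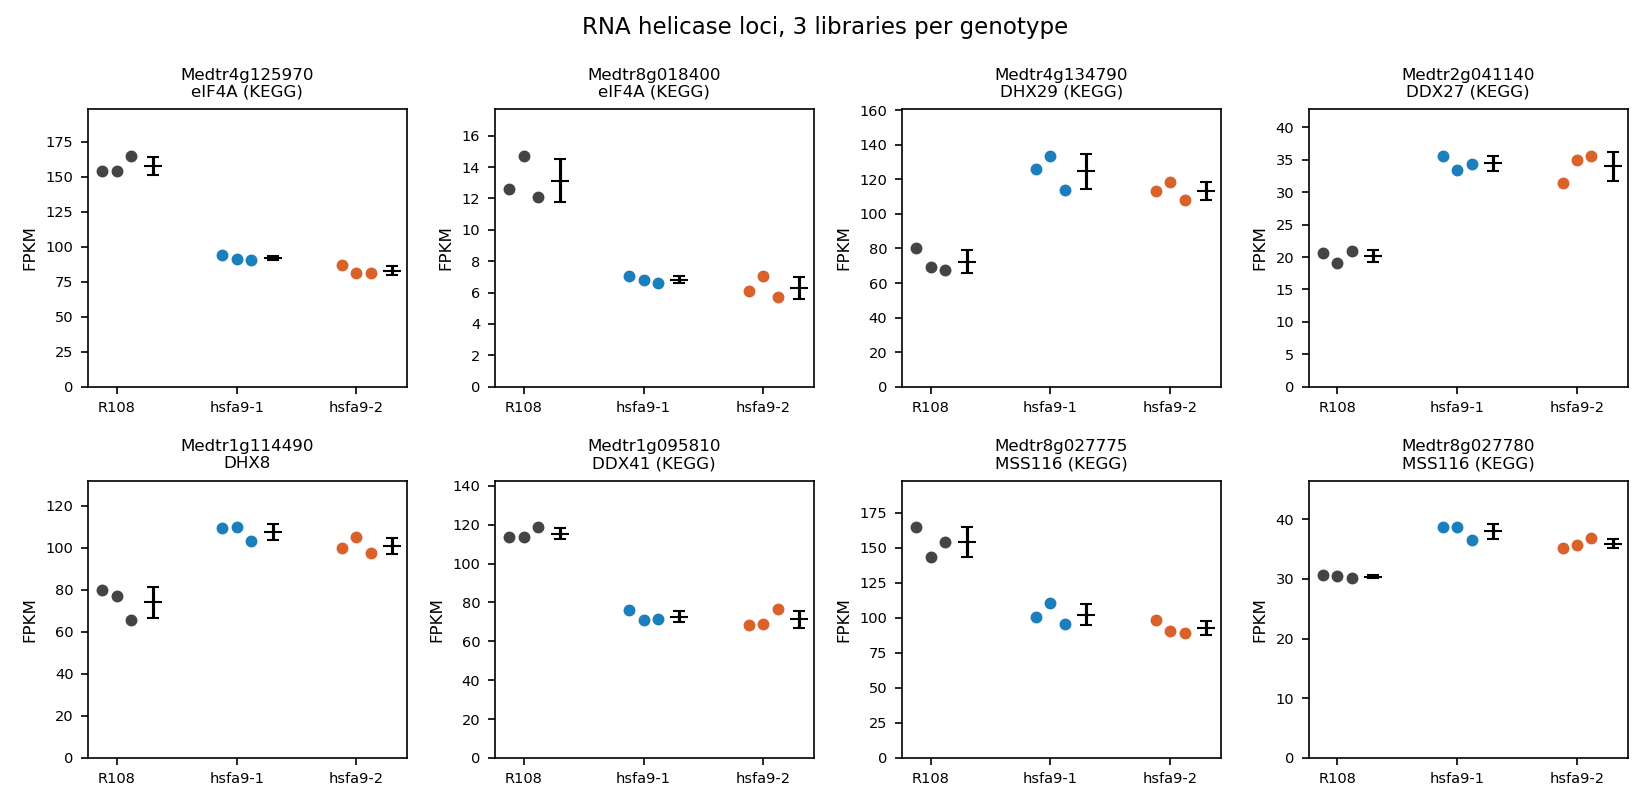
FPKM (y axis, from 0) of 8 RNA helicase loci by genotype (x axis); points are libraries and the bar beside them is the mean with its SD over 3 libraries. The eIF4A loci, DDX41 and Medtr8g027775 are lower in all mutant libraries, and DHX29, DDX27, DHX8 (Medtr1g114490) and Medtr8g027780 are higher in all of them.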

How the data were processed

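Per the labels' protocols, mRNA-enriched RNA was sequenced on the BGISEQ-500 platform, with a stated average of 24 M reads of 50 bp. The authors deposited FPKM values per transcript model. HISAT, HISAT2, Bowtie2 and RSEM are listed, without versions, in the submitters' processing notes, with genome build and annotation not given in the sources used here. Reads shared by near-identical loci may be divided between them. FPKM was summed over models per locus, and log2(FPKM + 1) was fitted for loci that reached 1 FPKM in 3 or more libraries, in 1 model over 9 libraries (limma 3.58.1, R 4.3.3, trend and robust moderation), with Benjamini-Hochberg adjustment over all 17508 tested loci; the code was tested on simulated data. No counts were used.

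The members and lists were chosen with earlier results of these data known, and the words that sort members into classes were revised after the descriptions, not the values, had been read. KEGG terms, which gave helicase roles, are those of the authors' deposited annotation; 234 members have one. The rule named the 2 most abundant members per class, up to 2 per direction called in both mutants with the largest smaller change, members called between mutants, the 5 steadiest at 20 FPKM or more, and the 2 most changed loci per related list; 41 other members were named after their values were seen. Alternatives covered pseudocounts 0.1 and 5, filters, scalings, moderation, single models, a replicate block, fewer genotypes and each library left out.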

Additional observations from a re-analysis of the deposited data

Results flagged for a closer look

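Medtr5g022690, described as the U4/U6 protein PRP4, changed differently in the mutants: the test of the difference gave a log2 change of -0.37 between hsfa9-2 and hsfa9-1 (limma adjusted p = 0.0388), with 3 of 3 hsfa9-2 libraries below all hsfa9-1 libraries. Over all settings tried, the adjusted p ran from 0.0275 to 0.157, and the call was made in 7 of 21, including the one reported.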

How the results depend on the processing

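Of the members called, 68 of 90 in hsfa9-1 and 73 of 105 in hsfa9-2 kept their call in all 21 settings. Median centring moved the number higher to 48 in hsfa9-1 and 50 in hsfa9-2, the number lower to 45 and 51, and the number higher in both mutants to 42. Leaving out each library in turn gave 80 to 95 changed members in hsfa9-1, 94 to 106 in hsfa9-2, 74 to 83 in both and 0 to 2 between the mutants, where leaving out hsfa9-2 replicate 1 gave the 2, Medtr3g019310 and Medtr5g077690. The 1 call between the mutants became 0 with no filter, median centring, no trend and no robust moderation, a replicate block, only the 2 genotypes compared, or models one by one. With the replicate block, 87 members changed in hsfa9-1, 105 in hsfa9-2 and 80 in both. Same-numbered libraries had deviations from their genotype means correlated between -0.12 and 0.10. With 3 libraries per genotype this cannot decide whether they share a harvest or a run, and the labels do not say that numbers pair libraries. No called result reported here changed direction in the settings tried. Without counts, depth cannot be set beside small differences, and values near 1 FPKM are the least certain.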

Other observations

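Proteins that act beside the spliceosome and the helicases were counted in 7 related lists, from which the members were taken out. The members include 2 tested loci with the KEGG term LSm1, of which 0 were called higher in both mutants and 0 lower in both. Over all tested loci, 27.6% rose and 31.9% fell in hsfa9-1, and 25.8% and 36.5% in hsfa9-2, with a median log2 change of -0.04 and -0.10. LSm proteins, which form the ring on U6 and on decaying mRNAs, held 0 that rose and 6 that fell of 10 in hsfa9-1 and 1 and 5 in hsfa9-2 (median log2 change -0.49 and -0.42), with Medtr7g094500, described as associated with U6, falling from 159.8 ± 2.23 to 87.7 ± 5.15 and 77.6 ± 10.99 FPKM and LSM5 (Medtr4g094600) from 85.0 ± 9.11 to 52.5 ± 3.61 and 46.8 ± 3.92. The hnRNP and glycine-rich RNA-binding proteins held 0 and 3 of 6, and 0 and 5 (median -0.21 and -0.25), or 0 and 2 in hsfa9-2 with median centring, including Medtr3g061590, from 77.3 ± 5.17 to 57.3 ± 1.28 and 56.3 ± 4.82 FPKM, and Medtr3g055990, from 8.58 ± 0.186 to 5.78 ± 0.313 and 5.23 ± 0.484, whose calls were lost with models tested one by one. RNA exosome subunits, which degrade RNA from its 3′ end, held 0 and 5 of 12, and 0 and 6 (median -0.18 and -0.29), or 0 and 3, and 0 and 4, with median centring; RRP40 (Medtr5g043110) fell from 36.1 ± 2.15 to 23.0 ± 2.27 and 22.5 ± 1.80 FPKM and RRP41 (Medtr4g058720) from 75.7 ± 3.16 to 52.3 ± 1.23 and 45.0 ± 5.64.

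Exon junction and nonsense-mediated decay proteins held 4 that rose and 3 that fell of 12 in hsfa9-1 and 2 and 3 in hsfa9-2 (median 0.20 and 0.05), and median centring flipped the balance in hsfa9-2 to 4 and 3. The partner of Y14-mago (Medtr2g007770) fell from 23.1 ± 0.774 to 13.4 ± 0.982 and 12.4 ± 1.55 FPKM, and Medtr5g011470, a decay protein, rose from 0.377 ± 0.248 to 2.90 ± 0.280 and 1.95 ± 1.12. Cleavage, polyadenylation and poly(A)-binding proteins held 5 and 13 of 29, and 4 and 15 (median -0.15 and -0.32), or 6 and 12 in each mutant with median centring. Their widest rises were Medtr1g061870, a poly(A)-binding protein, from 1.79 ± 0.217 to 8.95 ± 0.654 and 8.21 ± 0.421 FPKM, and Medtr8g099900, a tRNA nucleotidyltransferase/poly(A) polymerase, from 9.92 ± 0.818 to 33.3 ± 0.975 and 31.6 ± 2.41. Cap-binding and export proteins held 0 and 0 of 5, and 0 and 3 (median -0.16 and -0.23), or 0 and 0 in each mutant with median centring. SR protein kinases held 2 and 1 of 4, and 2 and 2 (median 0.04 and 0.01), or 2 and 1 in hsfa9-2 with median centring: of the AFC1 kinases, which phosphorylate SR proteins, Medtr4g104620 rose from 59.7 ± 1.94 to 93.7 ± 3.34 and 84.1 ± 4.89 FPKM and Medtr3g086530 fell from 17.7 ± 1.82 to 13.4 ± 0.488 and 12.9 ± 1.02, its hsfa9-1 call lost with models one by one.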
